A study of Mus musculus with 10 samples.

Results

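Cancer-associated fibroblasts are the stromal cells that lay down and remodel much of the matrix of a solid tumor. They are recognised by a combination of products, since no single gene marks them: fibrillar collagens, the surface proteases *Fap* and *Mme*, the PDGF receptor beta chain and the surface glycoprotein *Thy1*. PDGF ligands act on that receptor and on its alpha relative to drive fibroblast growth and recruitment, TGF-beta induces collagen and fibronectin synthesis, and *Twist1* is a transcription factor of mesenchymal cells. In melanoma, the tumor cells themselves can make several of these products.

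The values described here are those of 10 such genes, namely *Fap*, *Mme*, *Col1a1*, *Col3a1*, *Fn1*, *Thbs1*, *Pdgfrb*, *Pdgfc*, *Thy1* and *Twist1*, out of 770 gene probes on a mouse immune panel for cancer. The genes were picked by name with their differences between *Siah2* KO and WT tumors already known, so each of those differences is given as a description, with no p, and a count of them past a threshold is read against nothing but the same count over all probes. All 10 were found on the panel, and each had a mean of at least 20 normalized counts over the tumors.

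RNA levels were read on the NanoString PanCancer Immune Profiling panel, where barcoded probes hybridised to RNA are counted without amplification. The RNA came from 10 whole YUMMER1.7 tumors, 5 grown in WT mice (replicates 2 to 6) and 5 grown in *Siah2* KO mice (replicates 1, 2, 3, 5 and 6). YUMMER1.7 is a mouse melanoma line that carries *Braf* V600E and lacks *Cdkn2a*, and the injected cells were the same in both groups, so that *Siah2*, which encodes a ubiquitin ligase, was missing from every cell of the host and not from the melanoma cells. The study injected 400000 cells under the skin of male syngeneic mice, whose age it gives as 5 to 7 weeks for the growth experiment and 6 to 10 weeks for its mice in general, and no gene of the 10 was altered in the hosts by design. Tumors were taken 11 days after injection according to the sample labels and 10 days according to the series text and the legend, and the series text names another line and another knockout, while every sample label names YUMMER1.7 and *Siah2*. No probe for *Siah2* is on the panel, so the genotype could not be checked from the values. Whole tumor RNA does not separate fewer cells of a type from less RNA per cell, and it does not separate host from melanoma RNA.

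The tumors summed to 512955 to 585366 normalized counts in WT and 575773 to 741789 in *Siah2* KO, and before scaling to the reference genes to 443459 to 578750 and 382853 to 581551. Across all 770 probes the median log2 difference, *Siah2* KO minus WT, was 0.24. In limma's moderated test 316 probes, or 41.0%, had an adjusted p under 0.05, with 241 higher in *Siah2* KO (31.3%) and 75 lower (9.74%). That split depended on the scaling, since with all tumors set to the same median the median difference fell to -0.0074 and 163 probes were higher and 152 lower, and with quantile normalization 153 were higher and 181 lower. All *Siah2* KO tumors lay below all WT tumors at 54 probes (7.01%) and above them at 189 (24.5%). Samples are separate tumors by their labels, and whether they come from separate mice is not stated, so that the p-values given for other genes measure the spread between these tumors.

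Against that background, 7 of the 10 genes were lower in *Siah2* KO tumors at an adjusted p under 0.05 and 2 were higher, *Thbs1* and *Thy1*, while *Twist1* did not pass. The tumors of the groups did not overlap for 7 genes, with *Siah2* KO below WT for *Fap*, *Mme*, *Col3a1*, *Fn1*, *Pdgfrb* and *Pdgfc* and above it for *Thbs1*. The median log2 difference of the 10 was -0.74 and the range ran from -1.97 to 1.63. The same contrast was in view when the genes were chosen, so these counts describe that choice and support nothing.

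**Figure D1:**
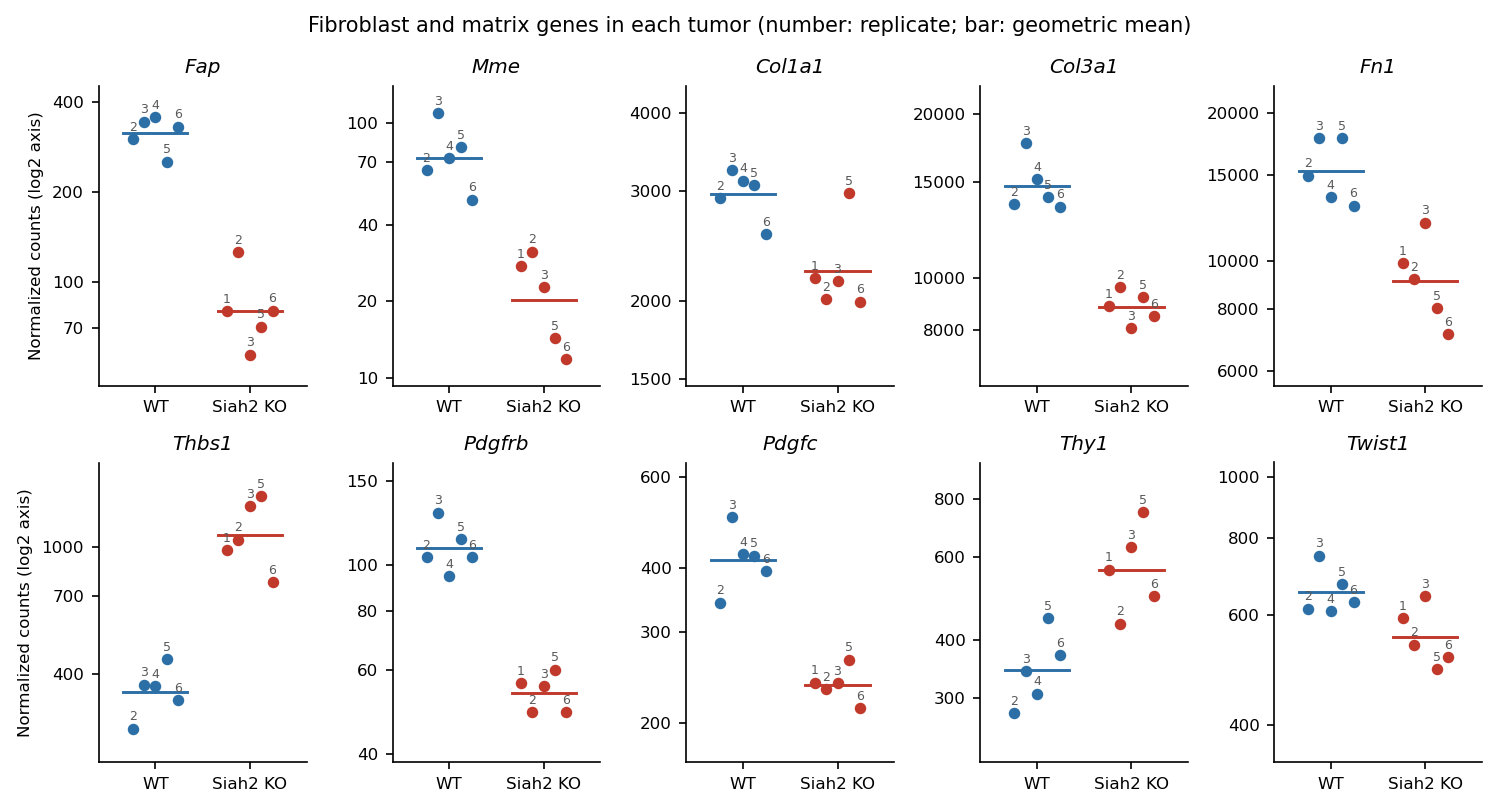
Normalized counts of the 10 fibroblast and matrix genes in each tumor, on log2 axes with a range of their own for each gene. Points are single tumors, labelled with their replicate number, blue for WT and red for *Siah2* KO, and bars are geometric means. *Siah2* KO points lie below every WT point for *Fap*, *Mme*, *Col3a1*, *Fn1*, *Pdgfrb* and *Pdgfc*, and above them for *Thbs1*.

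Promoter sequence was at hand for 4 of the 10 genes in RefSeq on GRCm38.p6, as the 250 bases before a transcript start and 50 from it on. These 4 are shown because no others were at hand. Of them *Col3a1*, *Pdgfc* and *Mme* were separated between the groups and *Twist1*, whose protein binds E-boxes, was not. Capitals mark E-boxes (CANNTG), the TATAAA motif and the CCAAT motif, searched on both strands.
*Col3a1*, chr1:45311288-45311587, plus strand: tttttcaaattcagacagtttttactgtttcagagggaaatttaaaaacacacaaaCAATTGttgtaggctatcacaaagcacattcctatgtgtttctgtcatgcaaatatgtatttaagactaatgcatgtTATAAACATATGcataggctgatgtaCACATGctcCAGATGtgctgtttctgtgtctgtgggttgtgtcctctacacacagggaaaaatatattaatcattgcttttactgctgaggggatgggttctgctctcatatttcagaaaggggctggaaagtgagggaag
*Pdgfc*, chr3:81036166-81036465, plus strand: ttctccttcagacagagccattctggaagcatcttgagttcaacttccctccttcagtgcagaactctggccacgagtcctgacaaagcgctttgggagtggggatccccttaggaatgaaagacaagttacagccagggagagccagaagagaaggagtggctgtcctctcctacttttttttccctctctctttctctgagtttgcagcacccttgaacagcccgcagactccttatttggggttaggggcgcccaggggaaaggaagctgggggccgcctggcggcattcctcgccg
*Mme*, the first of 3 starts, chr3:63294961-63295260, plus strand: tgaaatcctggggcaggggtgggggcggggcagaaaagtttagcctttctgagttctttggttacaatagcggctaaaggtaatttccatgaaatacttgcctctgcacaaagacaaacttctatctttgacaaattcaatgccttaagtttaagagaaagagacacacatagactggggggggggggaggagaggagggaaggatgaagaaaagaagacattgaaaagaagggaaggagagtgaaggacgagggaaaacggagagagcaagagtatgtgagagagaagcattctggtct
*Twist1*, chr12:33957421-33957720, plus strand: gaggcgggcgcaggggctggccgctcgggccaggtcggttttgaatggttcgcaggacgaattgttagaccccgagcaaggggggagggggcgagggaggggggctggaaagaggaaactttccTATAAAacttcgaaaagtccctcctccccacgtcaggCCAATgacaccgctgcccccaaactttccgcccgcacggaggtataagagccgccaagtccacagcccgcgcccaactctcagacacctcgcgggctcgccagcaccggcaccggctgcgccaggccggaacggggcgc
The *Col3a1* window held 4 E-boxes, which begin at -194, -111, -91 and -82 from the start, and a TATAAA at -117 that directly precedes the E-box at -111, so their capitals run together. The *Twist1* window held a TATAAA at -126, a CCAAT at -89 and no E-box, and the *Pdgfc* window and this *Mme* window held none of the 3 motifs. The windows at the other starts of *Mme* held 2 and 1 CCAAT. Of 32851 promoter windows of this length 72.3% held an E-box, 13.6% a TATAAA and 37.4% a CCAAT. These matches describe letters in the window and not binding.

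The lowest values relative to WT were those of the cell surface proteases. *Fap* encodes fibroblast activation protein, a serine protease of activated fibroblasts that cleaves denatured collagen. *Fap* measured 301.1, 344.3, 356.4, 253.1 and 331.5 normalized counts in WT replicates 2 to 6 and 79.7, 125.8, 56.8, 70.5 and 79.9 in *Siah2* KO replicates 1, 2, 3, 5 and 6. The highest *Siah2* KO tumor, replicate 2, stood well under the lowest WT tumor, replicate 5. The group means were 317 ± 41.3 and 82.5 ± 25.9 (SD, n = 5 each), a log2 difference of -1.97 (SE 0.19, 95% interval -2.40 to -1.54), and only 5 of the 770 probes had a lower difference.

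*Mme* encodes neprilysin, also known as CD10, a zinc peptidase found on subsets of fibroblasts and also on neutrophils and early B cells. It measured 65.5, 109.5, 72.8, 80.2 and 50.03 normalized counts in WT replicates 2 to 6 and 27.5, 31.3, 22.7, 14.4 and 11.9 in *Siah2* KO replicates 1, 2, 3, 5 and 6. No *Siah2* KO tumor reached the WT range, and replicates 5 and 6 were close to the highest negative control probe of the same tumors, at 15.8 and 9.83. Mean levels were 75.6 ± 22.0 in WT and 21.6 ± 8.33 in *Siah2* KO, with a log2 difference of -1.80 (SE 0.29, 95% interval -2.45 to -1.16). When values under 20 were raised to 20 the difference was -1.57, and with a pseudocount of 10 in place of 1 it was -1.44. Of 5 neutrophil markers 1 was higher at an adjusted p under 0.05, *Csf3r*, and none was lower, and of 5 B cell markers none was lower. The neutrophil markers summed to 214 to 263 normalized counts in WT and 233 to 619 in *Siah2* KO. The B cell markers summed to 15.3 to 25.2 and 20.2 to 50.5, with each gene's mean under 20, and their part in the *Mme* values was not tested.

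The fibrillar collagens moved by unequal amounts. *Col3a1* encodes the chain of type III collagen, and *Col1a1* the alpha 1 chain of type I collagen, which forms the thickest fibers of skin and scar. *Col3a1* measured 13636, 17631, 15165, 14034 and 13498 normalized counts in WT replicates 2 to 6 and 8864, 9614, 8067, 9218 and 8487 in *Siah2* KO replicates 1, 2, 3, 5 and 6. The groups were far apart, and the coefficient of variation among *Siah2* KO tumors was only 6.84%. The means were 14793 ± 1716 and 8850 ± 605, and the log2 difference was -0.74 (SE 0.098, 95% interval -0.96 to -0.52).

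For *Col1a1* the same tumors gave 2925, 3240, 3119, 3070 and 2561 normalized counts in WT and 2176, 2011, 2153, 2977 and 1994 in *Siah2* KO. The groups overlapped through *Siah2* KO replicate 5 alone, which reached the WT range while the other 4 *Siah2* KO tumors lay below every WT tumor. The means were 2983 ± 261 and 2262 ± 408, with a log2 difference of -0.41 (SE 0.13, 95% interval -0.69 to -0.13). This was the member whose place under the threshold was least stable: its adjusted p was above 0.05 in 8 of 24 other settings, which were the scaling to positive controls, both fits on the 8 tumors with shared replicate numbers, and the fits without WT replicate 3 or 4 or *Siah2* KO replicate 1, 2 or 3. Within a tumor the ratio of *Col1a1* to *Col3a1* counts, which no single factor for the tumor can change, was 0.184 to 0.219 in WT and 0.209 to 0.323 in *Siah2* KO. The mean log2 difference of the ratio was 0.33, with overlapping groups. After quantile normalization, which is not a single factor, the log2 differences of *Col1a1* and *Col3a1* lay closer together, at -0.77 and -0.86.

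The matrix glycoproteins went in opposite directions. *Fn1* encodes fibronectin, which links cells to collagen through integrins. It measured 14925, 17767, 13506, 17788 and 12971 normalized counts in WT replicates 2 to 6 and 9928, 9214, 11990, 8047 and 7131 in *Siah2* KO replicates 1, 2, 3, 5 and 6. The highest *Siah2* KO tumor, replicate 3, came near the lowest WT tumor, replicate 6, without reaching it. The log2 difference was -0.74 (SE 0.16, 95% interval -1.09 to -0.39), close in size to that of *Col3a1*.

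*Thbs1* encodes thrombospondin 1, a secreted protein that inhibits vessel growth and activates latent TGF-beta, and that platelets and macrophages make as well as fibroblasts. It measured 269.5, 370.6, 366.4, 445.8 and 331.5 normalized counts in WT replicates 2 to 6. In *Siah2* KO replicates 1, 2, 3, 5 and 6 it measured 976, 1054, 1339, 1440 and 773. The groups were separate, and the means of 1116 ± 272 and 357 ± 64.2 gave a log2 difference of 1.63 (SE 0.19, 95% interval 1.20 to 2.05). At 26 of the 770 probes the difference was higher.

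As a ratio within each tumor, *Thbs1* over *Fn1* ran from 0.0181 to 0.0271 in WT and from 0.0983 to 0.179 in *Siah2* KO, a mean log2 difference of 2.37. Of 8 macrophage markers, 2 were higher in *Siah2* KO at an adjusted p under 0.05 and 1 was lower (0 and 1 with the scaling to positive controls). Their summed level was 16042 to 19584 in WT and 18620 to 27266 in *Siah2* KO. The pair of platelet markers, *Itga2b* and *Ppbp*, summed to at most 22.6 normalized counts in any tumor, and neither passed the test. The part of macrophages in the *Thbs1* and *Fn1* values was not tested.

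**Figure D2:**
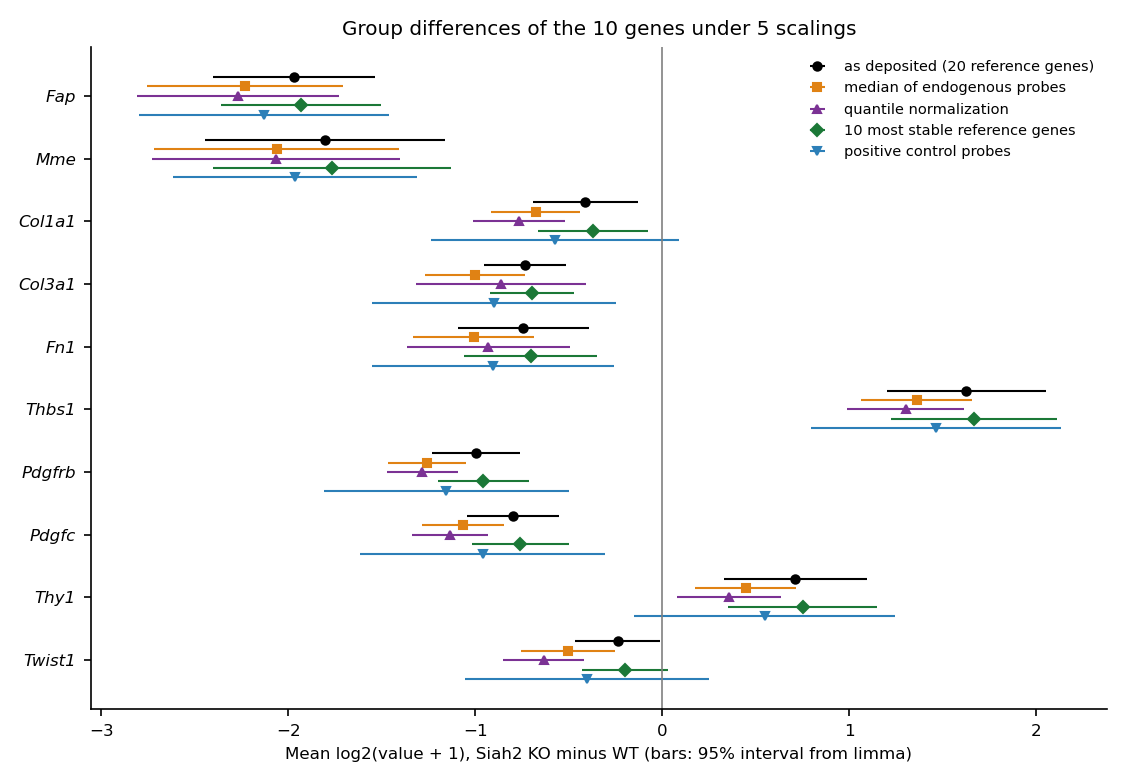
Log2 differences of the 10 genes, *Siah2* KO minus WT, with limma's 95% intervals, for the deposited scaling to 20 reference genes and 4 other scalings. Every gene keeps its side of 0 under all 5; *Col1a1* and *Thy1* have intervals that cross 0 only when the tumors are scaled to the positive control probes, and *Twist1* does so there and with the 10 most stable reference genes.

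Both PDGF pathway genes, a receptor and a ligand, were lower. *Pdgfrb* encodes PDGF receptor beta, the kinase that fibroblasts and pericytes use to sense PDGF. It measured 103.8, 129.0, 94.8, 113.2 and 104.0 normalized counts in WT replicates 2 to 6 and 56.4, 48.9, 55.6, 60.2 and 49.0 in *Siah2* KO replicates 1, 2, 3, 5 and 6. Each *Siah2* KO tumor was well below each WT tumor, and the log2 difference of -0.996 (SE 0.11, 95% interval -1.23 to -0.76) was the third in size among the lower genes.

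*Pdgfc* encodes a ligand that is secreted in a latent form, acts after cleavage and signals mainly through PDGF receptor alpha. It ran from 342.3 to 502.1 normalized counts in WT with a median of 422.1, and from 213.8 to 265.6 in *Siah2* KO with a median of 238.7, so the groups were separate. Its log2 difference was -0.80 (SE 0.11, 95% interval -1.05 to -0.55). Within tumors *Pdgfrb* over *Col3a1* was 0.00625 to 0.00807 in WT and 0.00509 to 0.00689 in *Siah2* KO, overlapping groups with a mean log2 difference of -0.27, while *Fap* over *Col3a1* was 0.0180 to 0.0246 and 0.00704 to 0.0131, with a difference of -1.25 and no overlap. *Fap* over *Col1a1* gave 0.0825 to 0.129 and 0.0237 to 0.0625, a difference of -1.57. *Fap* was therefore lower relative to either collagen in each *Siah2* KO tumor than in any WT tumor.

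Pericytes also carry *Pdgfrb*. Of 3 markers of pericytes or of melanoma cells, 2 were lower in *Siah2* KO, *Cspg4* and *S100b*. *Cspg4*, the proteoglycan NG2, was 350 ± 52.2 in WT and 198 ± 62.3 in *Siah2* KO normalized counts (log2 difference -0.87, limma adjusted p = 0.0089). *S100b*, a calcium-binding protein of glia and melanoma cells, was 14.6 ± 7.96 and 1.72 ± 0.56, at or near the lowest values of the table in *Siah2* KO, and *Mcam* did not pass (log2 difference -0.17, limma adjusted p = 0.36). The 3 markers summed to 438 to 594 normalized counts in WT and 224 to 405 in *Siah2* KO. The highest *Siah2* KO tumor was replicate 3 for the sum and replicate 5 for *Pdgfrb*. Of 8 endothelial markers 2 were higher and 2 lower (2 and 6 with tumors set to the same median), and their sum was 1327 to 1441 in WT and 1236 to 1445 in *Siah2* KO. The part of pericytes, vessels and melanoma cells in the PDGF values was not tested.

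*Thy1*, a surface glycoprotein of fibroblasts that mouse T cells also carry in large amounts, was the fibroblast marker that ran against the rest. It measured 279.1, 343.3, 306.8, 444.5 and 371.0 normalized counts in WT replicates 2 to 6 and 564.5, 433.0, 631.4, 750.2 and 495.1 in *Siah2* KO replicates 1, 2, 3, 5 and 6. The groups overlapped by 1 tumor on each side, since *Siah2* KO replicate 2 was just under WT replicate 5. The means were 349 ± 63.9 and 575 ± 123, with a log2 difference of 0.71 (SE 0.17, 95% interval 0.33 to 1.09), which was 0.36 after quantile normalization.

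Some T cell markers were higher in the same tumors. Of 9 T cell markers 5 were higher at an adjusted p under 0.05 (*Cd3d*, *Cd3e*, *Cd3g*, *Cd8a* and *Lck*) and none was lower. The 4 others had log2 differences of 0.72 (*Cd2*), -0.019 (*Cd5*), -0.23 (*Cd6*) and -0.29 (*Cd4*). The 9 markers summed to 615 to 822 normalized counts in WT and 822 to 1437 in *Siah2* KO. These ranges overlapped slightly, with WT replicate 5 at 822.17 and *Siah2* KO replicate 6 at 822.06. After quantile normalization 3 of the 9 were higher and 2 lower, and with the positive controls none passed. The order of tumors was the same in part: replicate 5 had the highest sum and the highest *Thy1* in each group, but WT replicate 2 had the second highest WT sum and the lowest *Thy1*, and the lowest *Siah2* KO tumor was replicate 6 for the sum and replicate 2 for *Thy1*. Of 8 markers of leukocytes in general 7 were higher (3 after quantile normalization and 1 with the positive controls), and the list summed to 4643 to 5710 in WT and 6860 to 10324 in *Siah2* KO. The part of T cells in the *Thy1* values was not tested.

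*Twist1* is a basic helix-loop-helix factor that binds E-boxes and drives mesenchymal programs, and its own window held no E-box. WT tumors gave 609.6 to 748.6 normalized counts (median 630.4), and *Siah2* KO tumors 491.6 to 644.0 (median 538.6). *Siah2* KO replicate 3 was within the WT range, and the log2 difference of -0.24 (SE 0.10, 95% interval -0.47 to -0.011) was the smallest in size of the 10 with the deposited scaling. With tumors set to the same median it was -0.50, and after quantile normalization -0.63. *Twist1* passed the threshold in 3 of 24 other settings, namely both of these scalings and the fit without *Siah2* KO replicate 3. Of related genes, *Snai1*, a zinc finger factor of mesenchymal cells, fell by 0.79 on the log2 scale (limma adjusted p = 0.0046). The intermediate filament gene *Vim* had a log2 difference of 0.00081 (limma adjusted p = 0.998). *Cdh1*, which encodes E-cadherin and is repressed by both factors in epithelial cells, had a log2 difference of -0.71 (limma adjusted p = 0.035) and lost its call in 11 of 24 settings.

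Within a group the genes did not vary as a block. WT replicate 3 was the highest WT tumor for 6 of the 10 genes and WT replicate 6 the lowest for 4. *Siah2* KO replicate 5 was the highest *Siah2* KO tumor for 5 and replicate 6 the lowest for 5, while replicate 1 was never at either end. The spread was widest for *Mme*, with a coefficient of variation of 38.6% in *Siah2* KO and 29.1% in WT, and for *Fap* in *Siah2* KO at 31.4%, where the WT tumors were closer together. Among the *Siah2* KO tumors the highest value was 2.21 times the lowest for *Fap* and 2.63 times for *Mme*.

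**Figure D3:**
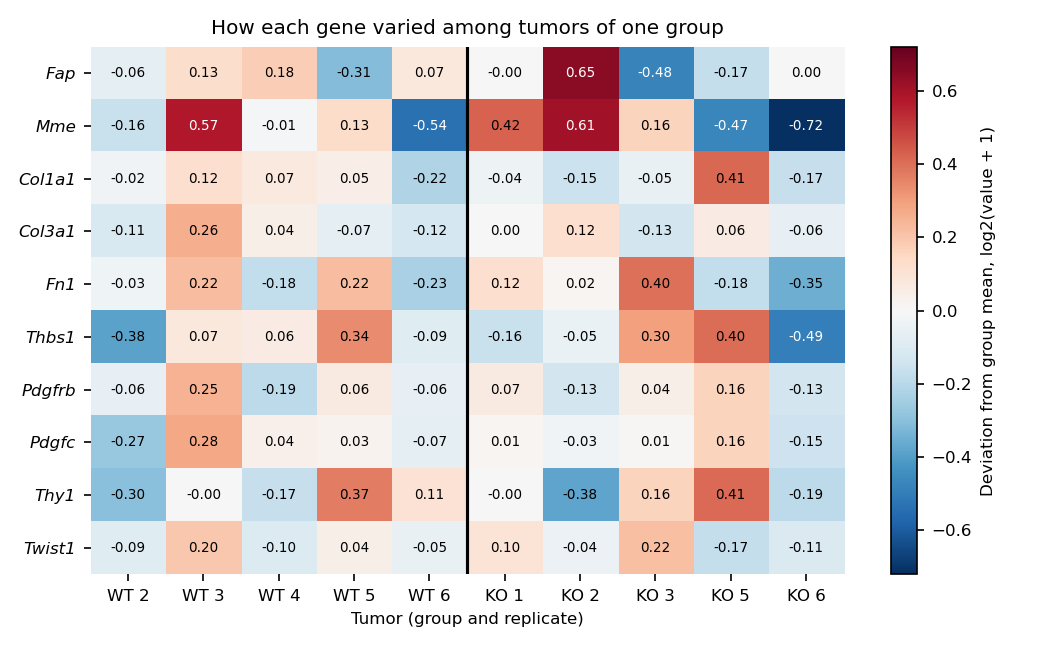
Deviation of each tumor from its group mean, in log2(value + 1), for the 10 genes in rows and the 10 tumors in columns. *Siah2* KO replicate 6 is the lowest *Siah2* KO tumor for 5 genes and replicate 5 the highest for 5, and the largest deviations are those of *Fap* and *Mme*.

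Each tumor's group mean was first taken out, so that the difference between groups played no part. The probes most like *Col1a1*, *Fap* and *Thbs1* were then sought among those outside the 10 genes with a mean of at least 20. For *Col1a1* they were *Ticam2* (Pearson's r 0.94, Spearman's rho 0.82), *Ctla4* (0.91 and 0.92) and *Btk* (0.89 and 0.67), over 10 tumors. For *Thbs1* they were *Chuk* (0.96 and 0.92), *Csf2rb* (0.95 and 1) and *Tyk2* (0.94 and 0.98). For *Fap* the highest were *Ifi27* (0.62 and 0.41), *Ccnd3* (0.62 and 0.65) and *Polr1b* (0.62 and 0.47). By Pearson's r no probe searched was as near to *Fap* as those named for *Col1a1* and *Thbs1* were to them. All probes of a tumor share 1 scaling factor, and with tumors set to the same median 4 of these 9 probes were still among the nearest.

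Other genes of the matrix and its pathways were counted from 5 lists of 53 genes in all. Of these 30 passed an adjusted p of 0.05 in limma, 14 higher and 16 lower in *Siah2* KO, with a median log2 difference of -0.057. Among all 770 probes, 41.0% passed and the median was 0.24. With tumors set to the same median the split was 11 higher and 22 lower, with quantile normalization 9 and 25, and with the positive controls 4 and 9.

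**Figure D4:**
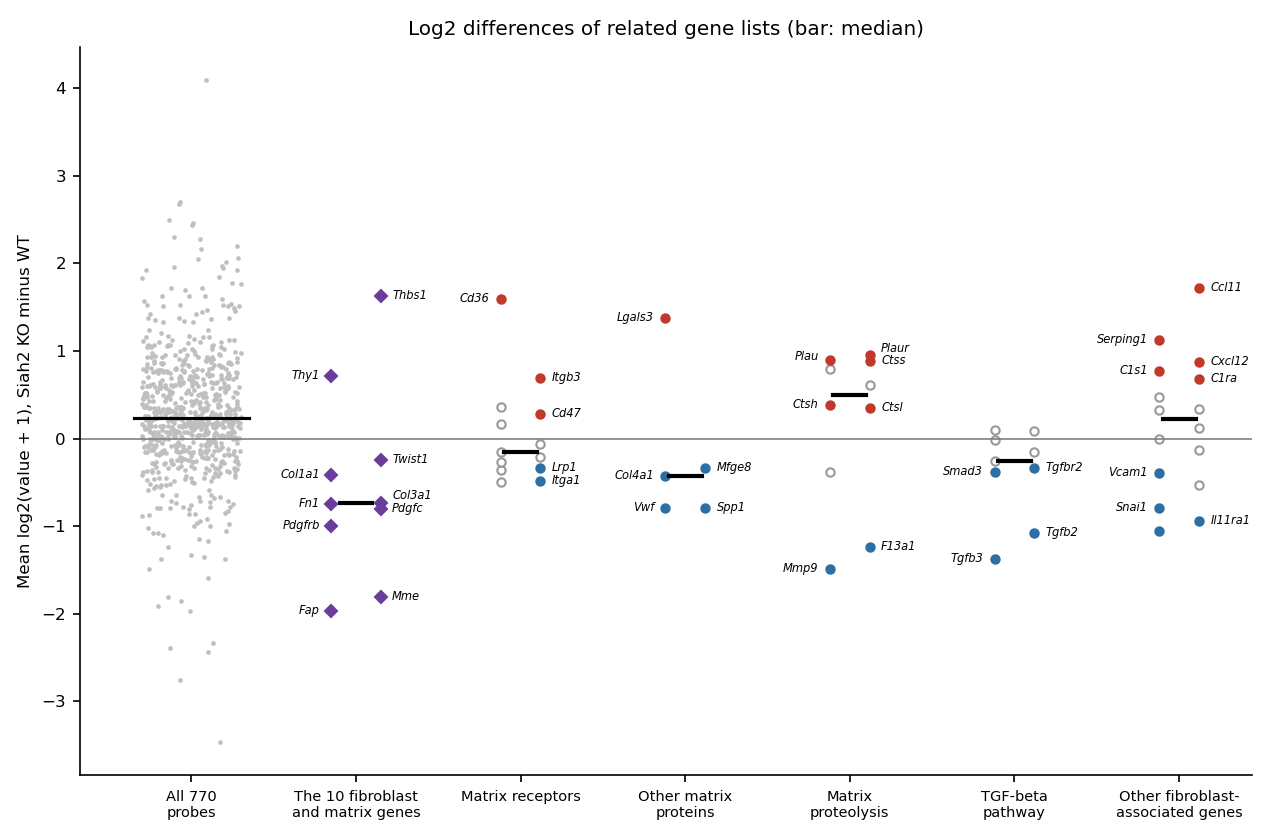
Log2 differences, *Siah2* KO minus WT, of all 770 probes (grey), the 10 fibroblast and matrix genes (purple diamonds, not tested) and 5 lists of related genes. In the lists, filled red and blue points are genes higher and lower at an adjusted p under 0.05, open points did not pass, and black bars are medians; the TGF-beta list has 4 lower and none higher, and the proteolysis list 5 higher and 2 lower, which became 2 and 3 after quantile normalization.

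Of the TGF-beta ligands, receptors and Smads, 4 of 9 were lower and none was higher, with a list median of -0.25. The number lower was 6 with tumors set to the same median, 8 after quantile normalization and 2 with the positive controls, and none was higher under these scalings. *Tgfb3* fell from 312 ± 37.0 to 121 ± 24.7 normalized counts (log2 difference -1.38, limma adjusted p = 0.00018). It measured 307.8, 372.6, 271.0, 302.0 and 308.4 in WT replicates 2 to 6 and 161.8, 111.3, 125.0, 98.6 and 107.7 in *Siah2* KO replicates 1, 2, 3, 5 and 6, with no overlap. *Tgfb2* fell by 1.08 on the log2 scale (limma adjusted p = 0.0069), and *Smad3*, which carries the signal to the nucleus, by 0.38 (limma adjusted p = 0.0043). *Tgfb1*, the ligand most studied in fibroblast activation, had a log2 difference of 0.10 (limma adjusted p = 0.44), which turned to -0.33 at the lowest under other scalings. The receptor gene *Tgfbr2* fell by 0.34 (limma adjusted p = 0.0045). The calls of *Smad3* and *Tgfbr2* were lost with the positive controls and with the replicate block.

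All 5 other matrix proteins passed, 4 lower and 1 higher. With the positive controls 2 were lower and 1 higher. On the 8 tumors with shared replicate numbers the split was 3 lower and 1 higher with the block, and 1 and 1 without it. *Spp1*, the secreted phosphoprotein osteopontin of macrophages and tumor cells, fell from 13533 ± 1492 to 7838 ± 1004 normalized counts (log2 difference -0.79, limma adjusted p = 0.00076). *Col4a1*, a chain of the type IV collagen of basement membranes, fell from 200 ± 22.4 to 150 ± 24.8 (log2 difference -0.42, limma adjusted p = 0.027), and its call was lost without WT replicate 3 or 4 or *Siah2* KO replicate 2 or 6. *Vwf*, the clotting factor of endothelium, fell by 0.79 (limma adjusted p = 0.0095). *Mfge8* fell by 0.33 (limma adjusted p = 0.024), a call lost without WT replicate 2 or 6 or *Siah2* KO replicate 1. *Lgals3*, a galactose-binding protein abundant in macrophages, rose from 4309 ± 388 to 11411 ± 2540 (log2 difference 1.38, limma adjusted p = 0.00023).

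Among 13 receptors for matrix proteins, 3 were higher and 2 lower, with a median of -0.15. The split was 2 and 4 with tumors set to the same median or after quantile normalization, and 1 and 0 with the positive controls. *Cd36*, a receptor for thrombospondin 1 and for fatty acids on macrophages and endothelium, rose from 57.7 ± 8.73 to 191 ± 94.1 normalized counts (log2 difference 1.59, limma adjusted p = 0.0023). It ran from 42.3 to 62.7 in WT and from 113.9 to 301.0 in *Siah2* KO, with no overlap. *Itgb3*, the integrin beta 3 chain, rose by 0.69 (limma adjusted p = 0.0039). *Cd47*, which binds thrombospondin 1 too, had a log2 difference of 0.28 (limma adjusted p = 0.032) that turned to -0.16 at the lowest under other scalings. *Itga1*, a collagen-binding integrin chain, fell by 0.49 (limma adjusted p = 0.019), and *Lrp1* fell by 0.33 (limma adjusted p = 0.024). Both calls were lost with the positive controls and with the replicate block, that of *Itga1* also on the same 8 tumors without the block and that of *Lrp1* without WT replicate 3 or 5.

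The list of proteases, their receptor and inhibitors had 5 genes higher and 2 lower out of 10, with a median of 0.50, but the split was 3 and 3 with tumors set to the same median, 2 and 3 after quantile normalization and 0 and 2 with the positive controls. The urokinase gene *Plau* rose by 0.90 (limma adjusted p = 0.0015) and its receptor *Plaur* by 0.96 (limma adjusted p = 0.00018). The lysosomal protease genes *Ctss*, *Ctsl* and *Ctsh* were also higher at differences of 0.89, 0.35 and 0.38, but *Ctsh* turned to -0.034 after quantile normalization. *Mmp9*, a gelatinase, fell from 68.5 ± 8.33 to 27.1 ± 15.1 normalized counts (log2 difference -1.49, limma adjusted p = 0.0085). *F13a1*, the clotting factor subunit that crosslinks fibrin, fell from 471 ± 117 to 201 ± 51.5 (log2 difference -1.24, limma adjusted p = 0.0023). Macrophages express many genes of this list, and their part in it was not tested.

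Of 16 further genes that fibroblasts express, along with other cells, 5 were higher and 4 lower, with a median of 0.22. The split was 5 and 5 with tumors set to the same median, 4 and 6 after quantile normalization and 2 and 3 with the positive controls. On the 8 tumors with shared replicate numbers, without the block, it was 3 and 2. The chemokine gene *Ccl11*, or eotaxin, rose from 97.9 ± 15.1 to 344 ± 130 normalized counts (log2 difference 1.72, limma adjusted p = 0.00094). *Serping1*, the C1 inhibitor, rose by 1.12 (limma adjusted p = 0.00046) and the chemokine gene *Cxcl12* by 0.87 (limma adjusted p = 0.0046). *Il11ra1*, the receptor of interleukin 11, fell by 0.94 (limma adjusted p = 0.025), a call lost when any 1 of 6 tumors was left out (WT replicates 3 to 6 and *Siah2* KO replicates 3 and 6). The genes of this list lay on both sides of 0, as did the 10 genes themselves.

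**Figure D5:**
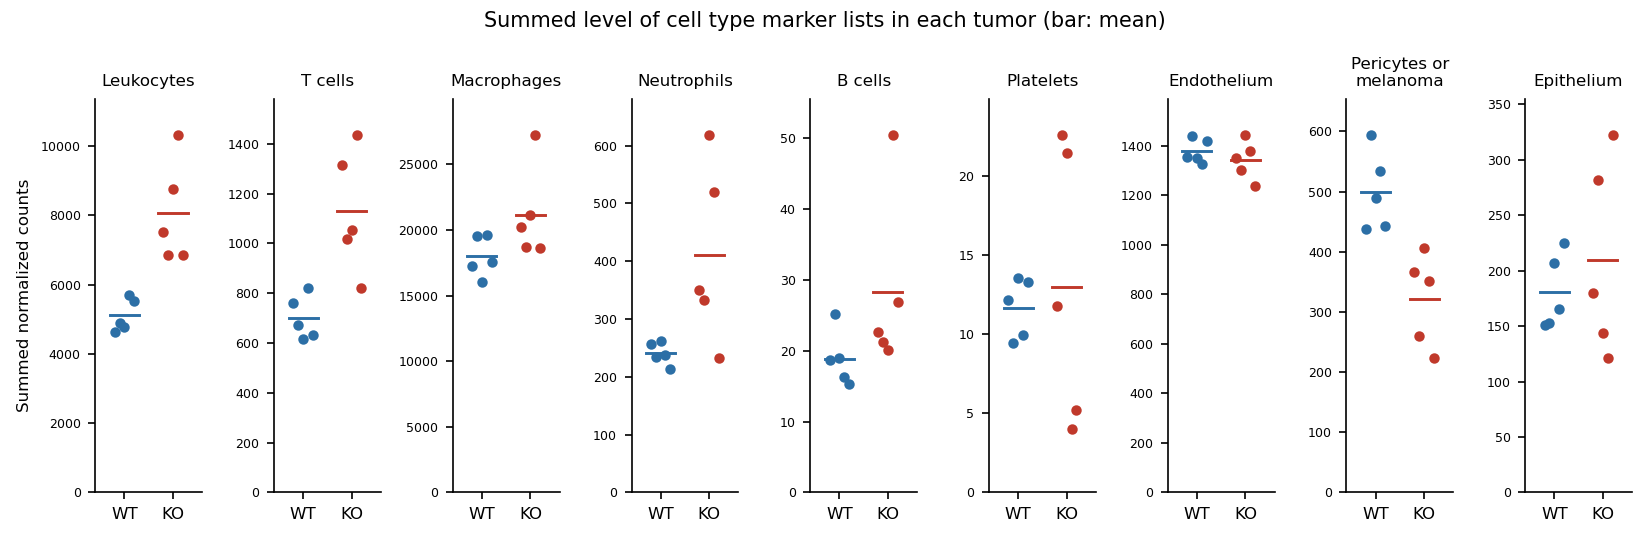
Summed normalized counts of marker lists for the cell types that could share the 10 genes, 1 point per tumor, WT in blue and *Siah2* KO in red. Leukocyte markers are higher in each *Siah2* KO tumor (6860 to 10324 against 4643 to 5710). Markers of pericytes or melanoma cells are lower (224 to 405 against 438 to 594), while the endothelial and epithelial sums overlap.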

How the data were processed

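The deposited table holds NanoString signal for 784 probes, 750 for endogenous genes, 20 for reference genes, 6 positive and 8 negative controls, as counts normalized by the authors. Per the methods, 100 ng of tumor RNA was hybridised, nSolver was used for quality control, samples that failed it were left out, and 20 reference genes served to scale the counts. A background constant had also been subtracted, and results under 1 set to 1 ahead of that scaling and again after it, since the lowest value was 1 in the 4 tumors with a factor under 1 and the factor itself in the others. In each tumor 100% of values under 150 and above the floor lay within 0.1 of a whole count times 1 factor, after that constant, and the factors ran from 0.918 to 1.32 in WT and 1.03 to 1.60 in *Siah2* KO. The control probes were not multiplied by the factor. The low end is therefore coarse: 39 to 84 probes per tumor were at the lowest value. Of the 20 reference genes 5 passed an adjusted p of 0.05 in limma, where 41.0% of all probes did. *G6pdx* and *Hprt* were higher in *Siah2* KO, and *Gusb*, *Oaz1* and *Tubb5* lower. The groups did not overlap for 6 of the 20, and the median log2 difference of the 20 was 0.0089.

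Groups came from the sample titles and genotype labels. Values were taken as log2(value + 1) and fitted for all 770 endogenous and reference probes with limma 3.58.1 in R 4.3.3 (lmFit and eBayes, two-sided, 5 against 5), with Benjamini-Hochberg adjustment over all 770. Fold changes are on that scale. The standard errors and 95% intervals of the 10 genes are those of this fit. The script was tested on simulated data. Promoter windows and gene records came from RefSeq tables on GRCm38.p6. Figures were drawn with matplotlib 3.10.9.

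The 10 genes, the 5 related lists, the marker lists and the tests were chosen with earlier results of these data known. Named were all 10 genes and markers beside a result. From each related list came at most the 3 lowest and 3 highest genes past the threshold. For *Col1a1*, *Fap* and *Thbs1* the 3 most like probes were named, among those outside the 10 genes with a mean of at least 20. *Tgfb1*, *Tgfbr2*, *Vim*, *Mfge8*, *Ctsl* and *Ctsh* were added after their values were seen, and some genes that the rule covers are not reported here. Marker sums cover leukocytes, T cells, macrophages, neutrophils, B cells, platelets, endothelium, pericytes or melanoma cells, and epithelium. Titles share replicate numbers 2, 3, 5 and 6, but the deviations of same-numbered tumors correlated at 0.035, 0.050, 0.17 and 0.35, and no label says that a number marks a shared batch, so tumors were not paired. Alternatives were 4 other scalings, filters and a floor on low values, other pseudocounts, other tests, a replicate block and leaving out each tumor.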

Additional observations from a re-analysis of the deposited data

Results flagged for a closer look

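Among the 20 groups of 5 tumors formed by the 10 genes, 1 had a tumor standing apart. It was *Col1a1* in the *Siah2* KO tumors, where replicate 5 measured 2976.98 normalized counts and the other 4 measured 1994 to 2176. The gap to the nearest tumor was 0.815 of the group's range, above Dixon's 95% critical value of 0.71, and chance alone gives about 1 such flag in 20 groups. The same tumor had the highest summed leukocyte, T cell and macrophage markers and the highest *Thbs1* and *Thy1* of its group. It also had the highest summed normalized counts of all tumors, at 741789, and the highest median over endogenous probes, at 188.72. The part of these in its *Col1a1* value was not tested. Without it the log2 difference of *Col1a1* was -0.51, against -0.41 with it.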

How the results depend on the processing

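All 10 genes kept their direction under every alternative tried. The median of the 10 was -0.74, ran from -0.78 to -0.68 when each tumor was left out in turn, and moved to -1.01 with tumors set to the same median, a setting that lowered the median of all probes from 0.24 to -0.0074. The calls numbered 316 of 770 (384 at an unadjusted p under 0.05), 268 to 334 without single tumors, 379 at the unadjusted threshold of the methods' t-test and 314 after Benjamini-Hochberg, and 94 when the reference gene factor was replaced by the positive controls (59 higher and 35 lower, 179 at an unadjusted p under 0.05). With the positive controls the related genes past the threshold fell from 30 to 13, and of the 10 genes 4 were lower and 1 higher. With tumors set to the same median, and after quantile normalization, 8 of the 10 genes were lower and 2 higher. Of the 9 probes most like *Col1a1*, *Fap* and *Thbs1*, 4 remained among the nearest with tumors set to the same median and 3 to 7 without single tumors (3 without *Siah2* KO replicate 2, 3 or 6). The causes were not tested.

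With the replicate number as a block on the 8 tumors that share one, 235 probes passed (190 higher and 45 lower), with 20 related genes and a median of -0.76 for the 10, and without the block the same tumors gave 232 and 20. All 8 tumors were most like the tumor of their own number in the other group, a hint from the data and not from the design. Of the 10 genes *Col1a1* lost its call on these 8 tumors, with the block and without it. The planned count model was not run, because the subtracted constant leaves values that are not whole counts. Values near the negative controls, such as *Mme* in *Siah2* KO, limit what a fold can show.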

Other observations

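Markers of 1 cell type did not always move together. Of the endothelial markers, *Pecam1*, an adhesion molecule that leukocytes and platelets also carry, had 164 ± 14.4 normalized counts in WT and 304 ± 38.1 in *Siah2* KO (SD, n = 5 each), a rise of 0.88 on the log2 scale (limma adjusted p = 0.00039), and *Icam2*, likewise shared with leukocytes, by 0.63 (limma adjusted p = 0.014). *Cdh5*, the cadherin of endothelial junctions, fell from 421 ± 40.9 to 307 ± 27.9 (log2 difference -0.45, limma adjusted p = 0.0052), with every *Siah2* KO tumor below every WT tumor. Each of these 3 calls was lost when the tumors were scaled to the positive controls.

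Of the macrophage markers, *Cd68*, a lysosomal protein, rose from 1269 ± 109 to 2351 ± 483 (log2 difference 0.87, limma adjusted p = 0.0012) and the Fc receptor gene *Fcgr1* by 0.72 (limma adjusted p = 0.0044). Both of these calls were lost with the positive controls too. *Mrc1*, the mannose receptor, fell from 2310 ± 556 to 1273 ± 411 (log2 difference -0.89, limma adjusted p = 0.017), although *Siah2* KO replicate 2 overlapped the WT tumors and its call was lost on the 8 tumors with shared replicate numbers, with the block and without it. Of 5 epithelial markers only *Cdh1* passed, and their sum was 151 to 225 in WT and 121 to 323 in *Siah2* KO.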
